A study of Homo sapiens with 27 samples.

Results

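Small RNAs of HEK293T, a cell line from human embryonic kidney, were compared between a DKC1 knockdown and its negative control (NC). Pseudouridine (Ψ) was read by PRAISE, in which a bisulfite-type treatment makes Ψ appear as a deletion in the sequenced read. The level of a site is the percent of covering reads with a deletion. Each genotype had 2 treated libraries and 1 untreated library, 6 of the 27 samples of the series. All 6 came from small RNA that AlkB had demethylated (molar ratio 2), with 300 ng taken as input and 100 ng of it left untreated. The labels give neither the knockdown reagent, its duration nor whether the cells are a clone, and the remaining DKC1 level was not checked here because the tables hold small RNAs alone. The extract protocol in the labels speaks of technical replicates, so p-values cover at most variation between libraries, and at many sites mainly counting error.

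DKC1 encodes dyskerin, the Ψ synthase of H/ACA ribonucleoprotein particles. An H/ACA RNA pairs with a target RNA and presents a uridine to dyskerin. Dyskerin also binds the H/ACA RNAs themselves and keeps them stable. H/ACA snoRNAs act in the nucleolus, mainly on rRNA, and scaRNAs act in Cajal bodies, mainly on spliceosomal snRNAs. C/D snoRNAs form a separate particle with fibrillarin and guide ribose methylation, so they are not bound by dyskerin as guides but can carry Ψ.

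The authors' tables list 101 Ψ sites, 28 in snRNAs and 73 in snoRNAs and scaRNAs. Sites with at least 20 covering reads in all 4 treated libraries were compared, which left 88 sites: 26 in 10 snRNAs, 27 in 17 C/D snoRNAs, 32 in 24 H/ACA snoRNAs and 3 in 3 scaRNAs. Positions 9-12 of RNU6-1 and of RNU4ATAC were left out because their knockdown rows appear to be exchanged, and 11 snoRNA or scaRNA sites had too few reads. Median coverage of the snRNA sites was 9645 and 10586 reads in knockdown, against 5412 and 6071 in NC. Over all 73 snoRNA sites it was 155 and 197 in knockdown, against 435 and 494 in NC. In untreated libraries the median level over the 88 sites was 0.0712% in knockdown and 0.102% in NC. The highest was at RNVU1-2A position 54, at 6.604% in knockdown (exact 95% interval 2.70 to 13.1%) and 9.09% in NC (4.63 to 15.7%). These intervals cover counting error only. No other site passed 1.87% in knockdown or 2.44% in NC.

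Sites that carry large changes, and 3 whose level differed little, are shown with 10 bases on each side where the RNA is long enough. The sequences are those of GENCODE 29 transcripts (GRCh38), read 5′ to 3′, with the listed site in capitals (T stands for U). Each site lies in the single exon of its own non-coding gene.
U4 (RNU4-2) 79, chr12:120291825, minus strand: cttttcccaaTaccccgccat
U4 (RNU4-2) 70-73, chr12:120291831-120291834, minus strand: aattgaaaacTTTTcccaataccc
U6 (RNU6-1) 31-32, chr15:67840014-67840015, minus strand: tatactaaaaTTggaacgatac
U6 (RNU6-1) 40, chr15:67840006, minus strand: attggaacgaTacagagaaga
U6 (RNU6-1) 85-86, chr15:67839960-67839961, minus strand: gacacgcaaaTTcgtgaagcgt
U2 (RNU2-1) 53-55, chr17:43233923-43233925, minus strand: ttcttatcagTTTaatatctgat
U2 (RNU2-1) 58, chr17:43233920, minus strand: atcagtttaaTatctgatacg
U2 (RNU2-1) 89, chr17:43233889, minus strand: gaggacaataTattaaatgga
U1 (RNU1-1) 5-6, chr1:16514280-16514281, minus strand: atacTTacctggcagg
SNORD45A 57-59, chr1:75787945-75787947, plus strand: gtaataacacTTTagctctagaa
SNORD16 51, chr15:66502860, minus strand: gacagttgccTgctgtcagta
SNORA38 82-84, chr6:31623160-31623162, plus strand: tttgggaaacTTTgaggccagct
SNORA75 84-85, chr2:231455852-231455853, minus strand: agaactagcaTTattttacctt
SNORD21 39-40, chr1:92837327-92837328, plus strand: cagtcagtagTTggtcctttgg
Many sites are runs of T, over which a deletion cannot be assigned to 1 base. Of the 95 listed sites that could be located, 80 were T at every listed position and 15 were not. No sequence is shown for those 15, which include all 3 sites of SNORD118 and the sites of SNORD32A, SNORD51, SNORD92 and SNORA74A. Their levels are given under the authors' numbering, and the base at the listed position was not established here.

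In DKC1 knockdown the deletion level was lower at several snRNA sites and higher at a few. Of 26 snRNA sites, 10 fell (38.5% of those tested) and 3 rose (11.5%) by at least 10 percentage points at an adjusted p under 0.05 (quasi-binomial model moderated with limma, Benjamini-Hochberg). With the p-value alone, 15 were lower (57.7%) and 8 higher (30.8%). The falls were spread over U1, U2, U4, U5, U6 and U6atac. The knockdown libraries did not overlap the NC libraries at any of the 26 sites, with 17 below and 9 above. Over all 88 tested sites, both knockdown libraries lay below both NC libraries at 66. The mean level over the 26 sites was 32.3% ± 0.14 in knockdown and 37.9% ± 0.37 in NC (SD, n = 2 each). RNU1-1, RNU2-1, RNU6-1 and others are members of families of near-identical copies, so reads under 1 name may come from several genes.

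**Figure D1:**
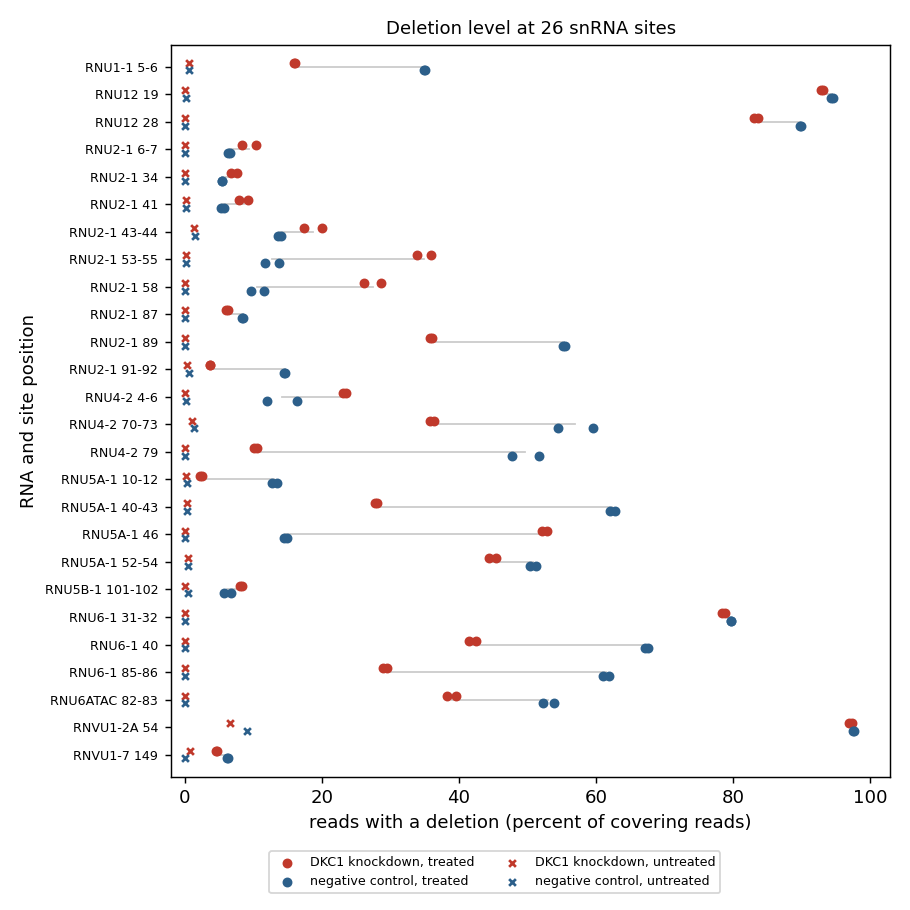
Deletion level (percent of covering reads) at each of the 26 tested snRNA sites, one row per site. Red dots are the 2 treated knockdown libraries and blue dots the 2 treated NC libraries, crosses are the untreated libraries and grey lines join the means. U4 79 and U5 40-43 lie far to the left in knockdown, U5 46 far to the right, and U12 19 and U6 31-32 nearly coincide.

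U4 pairs with U6 in the tri-snRNP and is released before splicing. U4 position 79 had 10.5% and 10.1% in knockdown, against 47.7% and 51.7% in NC. It fell by 39.4 points (adjusted p = 3.88e-05), the largest fall among the snRNA sites, and 20.7% of the NC level was left. Positions 70-73 had 36.4% and 35.8% in knockdown, against 54.4% and 59.6% in NC (adjusted p = 0.000747). The remaining U4 site, 4-6 near the 5′ end, lay in the other direction, at 23.6% and 23.1% in knockdown and 12% and 16.4% in NC. Its difference of 9.13 points was under the 10-point minimum (adjusted p = 0.0168). It was called higher, by 11.3 points, when NC replicate 2 was left out. U4 was also the snRNA whose treated coverage differed most: 3173 and 3580 reads in knockdown against 599 and 745 in NC, while the untreated libraries had 2808 and 3107. Its part in the U4 levels was not tested.

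U5 holds the ends of the 2 exons in its loop I. It carried the largest rise and the second-largest fall among snRNA sites, a few bases apart. Positions 40-43 of RNU5A-1 had 28.1% and 27.8% in knockdown, against 62.04% and 62.7% in NC, and fell by 34.4 points (adjusted p = 1.88e-06). Position 46 had 52.2% and 52.8% in knockdown, against 14.5% and 14.9% in NC, a rise of 37.8 points (adjusted p = 1.88e-06). Both libraries of each genotype gave nearly the same value at both sites. The sum of the 2 levels, in which a read with both deletions counts 2 times, was 80.3% and 80.7% in knockdown and 76.6% and 77.6% in NC. The same sum differed more between genotypes at the other pairs computed. At U2 53-55 and 58 it was 60.1% and 64.7% in knockdown, against 25.3% and 21.4% in NC. At U4 70-73 and 79 it was 46.9% and 45.9% in knockdown, against 102.1% and 111.3% in NC. The sums of U2 89 with 91-92 and of U6 40 with 85-86 were also lower in knockdown. All these sums were computed after the values were seen. Positions 10-12 of RNU5A-1 fell to 2.59% and 2.29% in knockdown, against 12.7% and 13.4% in NC (adjusted p = 3.55e-05). Positions 52-54 of RNU5A-1 had 45.5% and 44.4% in knockdown and 50.4% and 51.2% in NC, under the 10-point minimum. In RNU5B-1, another U5 gene, positions 101-102 had 8.12% and 8.44% in knockdown, against 6.75% and 5.69% in NC (adjusted p = 0.0686).

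U6 forms the catalytic core with U2. Position 40, which lies directly before the acagaga box that meets the 5′ splice site, had 42.5% and 41.5% in knockdown, against 67.2% and 67.5% in NC (adjusted p = 1.88e-06). Positions 85-86 had 29.005% and 29.5% in knockdown, against 61.1% and 61.9% in NC, and fell by 32.2 points (adjusted p = 1.09e-05). Positions 31-32, 8 bases upstream of position 40, differed little: they had 78.5% and 78.9% in knockdown, against 79.8% and 79.7% in NC. That difference of -1.05 points passed the p threshold (adjusted p = 0.00444) but was far under 10 points in size, and 98.7% of the NC level was left. Site 31-32 and site 40 were read at similar depth, with 345961 and 331128 covering reads in knockdown replicate 1. Site 85-86 had far fewer reads, 3989 and 5127 in knockdown and 3419 and 3827 in NC.

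U2 pairs with the branch site of the intron. Its 9 sites split by position: the 6 from 6-7 to 58 had higher mean levels in knockdown, and the 3 from 87 to 91-92 lower ones. At the 3′ side, position 89 had 35.7% and 36.0% in knockdown, against 55.5% and 55.2% in NC, and positions 91-92 had 3.75% and 3.76% in knockdown, against 14.7% and 14.5% in NC. Both fell (adjusted p = 1.88e-06 each). In the middle, positions 53-55 had 33.9% and 36.0% in knockdown, against 13.7% and 11.7% in NC, and position 58 had 26.1% and 28.7% in knockdown, against 11.6% and 9.64% in NC. Both rose, by 22.2 points (adjusted p = 0.000149) and 16.8 points (adjusted p = 0.000485). In the branch-site region, position 34 had 7.64% and 6.80% in knockdown and 5.43% and 5.50% in NC. Position 41 had 9.27% and 7.90% in knockdown and 5.69% and 5.32% in NC. Positions 43-44 had 20.03% and 17.4% in knockdown and 13.6% and 13.99% in NC. All 3 were higher in knockdown at adjusted p-values of 0.0151, 0.00804 and 0.0118, by 1.75, 3.08 and 4.95 points, and none reached 10 points. Near the 5′ end, positions 6-7 had 10.4% and 8.44% in knockdown, against 6.597% and 6.26% in NC (adjusted p = 0.0214). Position 87 had 6.07% and 6.32% in knockdown, against 8.565% and 8.37% in NC (adjusted p = 0.000485). Both of these differences were also under 10 points. Positions 34 and 53-55 have a T of the site as the T directly before the A of TNTAA or TNTAG, searched on the RNA's own strand, a motif known for the stand-alone synthase PUS7. It was found at 4 of the 80 sites that are T throughout, the others being SNORD45A 57-59 and SNORA56 42.

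Among the other snRNAs, positions 5-6 of U1, in the 5′ end that pairs with the 5′ splice site, fell to 16.1% and 15.9% in knockdown, against 35.0% and 35.0% in NC (adjusted p = 1.88e-06). U6atac, the U6 counterpart of the minor spliceosome, had 39.7% and 38.3% at positions 82-83 in knockdown, against 52.2% and 53.9% in NC (adjusted p = 0.00021). U12, the U2 counterpart of the minor spliceosome, kept most of its level. Its position 19 had 92.9% and 93.1% in knockdown, against 94.4% and 94.7% in NC, and position 28 had 83.6% and 83.1% in knockdown, against 89.8% and 89.9% in NC. Both U12 sites were lower at adjusted p-values of 0.00247 and 5.32e-05, with differences of -1.52 and -6.49 points. RNVU1-2A, a U1 variant, had 96.9% and 97.3% at position 54 in knockdown, against 97.5% and 97.7% in NC (adjusted p = 0.39). It is also the site with the highest untreated level given above. The 10 falls and the 3 rises were called again when any 1 of the 4 libraries was left out.

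The treated coverage of U1, U2, U4 and U5A in knockdown was 1.89 to 5.02 times that in NC. Their untreated ratios were 0.877 to 1.00. These ratios use the highest coverage over the listed sites of each RNA, and depth differed within U2. The U2 ratio comes from its 3′ side, with 73357 and 92187 reads in knockdown, against 27756 and 30205 in NC. Position 34 of U2 had 5867 and 5820 reads in knockdown, against 4732 and 5325 in NC. The risen U2 positions 53-55 had 9517 and 10404 reads in knockdown, against 5389 and 6063 in NC. The U2 untreated coverage was 1500024 reads in knockdown and 1500020 in NC, nearly the same round number, so it is not read as a measure of U2. The other 5 snRNAs with a coverage value had treated ratios of 0.851 to 1.13. All 3 rises and 7 of the 10 falls lie in U1, U2, U4 and U5A, which hold most of the 26 tested snRNA sites. U2 alone holds 9 of them. Whether the change in treated coverage moves the levels of these 4 RNAs was not tested.

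In snoRNAs and scaRNAs, the deletion level fell at 17 of 62 sites (27.4%) and rose at 0 (0%). With the p-value alone, 43 sites were lower (69.4%) and 0 higher. Of the 5 sites with a higher mean in knockdown, 0 had an unadjusted p under 0.05 in the quasi-binomial model or in Fisher's exact test on summed counts, and limma on percentage points had 1, under 10 points. C/D snoRNAs held 12 of the 17 falls, among 27 sites tested, H/ACA snoRNAs held 5 among 32, and scaRNAs 0 among 3. With the p-value alone the counts were 22 of 27 in C/D snoRNAs, 21 of 32 in H/ACA snoRNAs and 0 of 3 in scaRNAs. Mean levels were 16.1% ± 1.47 in knockdown and 32.2% ± 0.96 in NC for C/D sites, 25.7% ± 0.78 in knockdown and 32.6% ± 1.04 in NC for H/ACA sites, and 24.2% ± 0.73 in knockdown and 23.8% ± 3.30 in NC for scaRNA sites (SD, n = 2 libraries each). The 17 calls dropped to 7 without knockdown replicate 1 and to 7 without knockdown replicate 2, and to 9 with at least 100 reads per library.

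**Figure D2:**
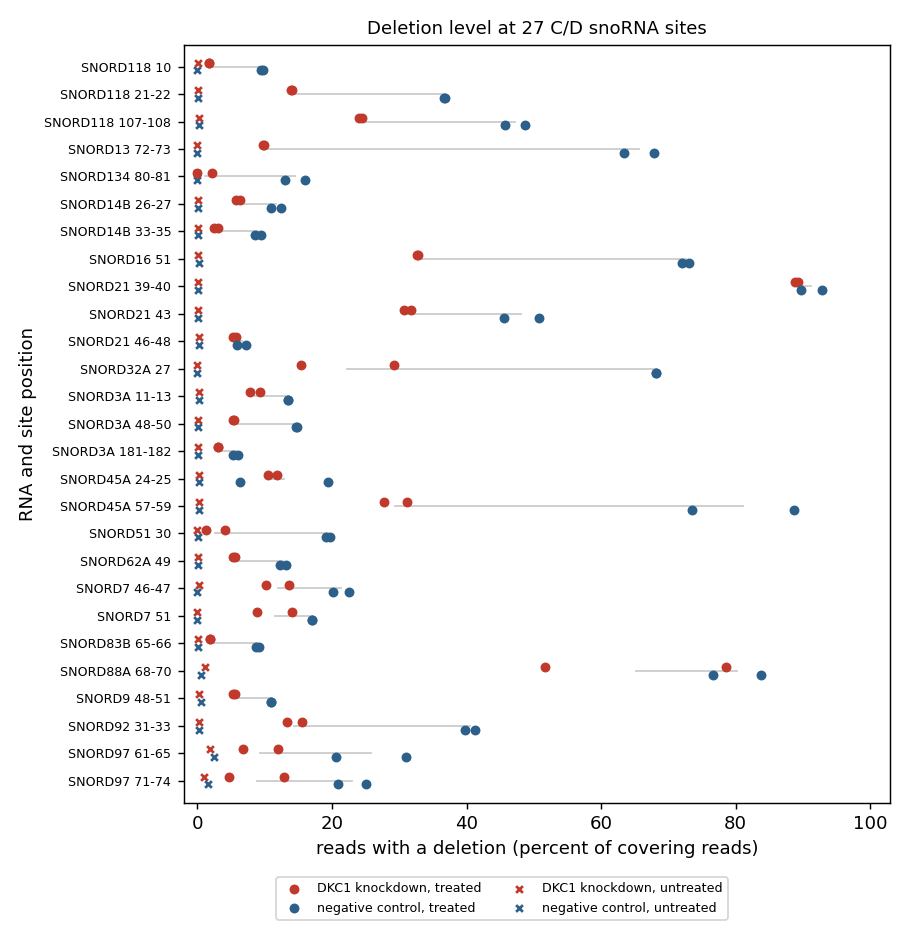
Deletion level (percent of covering reads) at the 27 tested C/D snoRNA sites, one row per site. Red dots are the 2 treated knockdown libraries, blue dots the 2 treated NC libraries, crosses the untreated libraries and grey lines join the means. Red lies left of blue at 25 of 27 sites with no overlap, and SNORD21 39-40 stays near 90%.

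The largest fall in any C/D snoRNA was in U13 (SNORD13), which guides acetylation of small-subunit rRNA in human cells. Its positions 72-73 had 9.93% and 9.70% in knockdown, against 67.9% and 63.4% in NC, and fell by 55.9 points (adjusted p = 1.51e-37). SNORD45A positions 57-59 had 27.7% and 31.2% in knockdown, against 73.5% and 88.7% in NC, from 47 to 77 reads per library (adjusted p = 6.27e-13). SNORD32A position 27 had 15.4% and 29.2% in knockdown, against 68.2% and 68.2% in NC, from 22 reads in each NC library (adjusted p = 1.18e-05). SNORD16 position 51, at 7014 to 8891 reads, had 32.6% and 32.8% in knockdown, against 72.04% and 73.04% in NC, and SNORD92 positions 31-33 had 13.3% and 15.6% in knockdown, against 41.3% and 39.8% in NC. At all 5 sites both knockdown libraries lay below both NC libraries, as they did at 49 of the 62 snoRNA and scaRNA sites. Like most C/D snoRNAs, SNORD45A, SNORD32A, SNORD16 and SNORD92 belong to the class known for guiding ribose methylation.

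U8 (SNORD118) and U3 (SNORD3A) are C/D snoRNAs that act in rRNA processing. At the deepest C/D site of the table, U8 positions 21-22, the level was 14.04% and 13.9% in knockdown and 36.6% and 36.8% in NC, from 53572 to 68739 covering reads. U8 positions 107-108 had 24.004% and 24.4% in knockdown, against 48.7% and 45.7% in NC. Position 10 had 1.78% and 1.79% in knockdown, against 9.44% and 9.74% in NC, a loss of most of a low level that stayed under 10 points. The 3 U3 sites were all lower at adjusted p-values of 2.88e-07 or smaller and all by under 10 points. U3 positions 48-50 had 5.27% and 5.44% in knockdown and 14.9% and 14.7% in NC, positions 11-13 had 7.75% and 9.30% in knockdown and 13.4% and 13.5% in NC, and positions 181-182 had 2.997% and 2.99% in knockdown and 5.98% and 5.33% in NC. All 7 sites of U3, U8 and U13 were lower in knockdown, and 3 of them by 10 points or more.

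Sites of 1 RNA differed in how much they kept. SNORD21 positions 39-40 had 89.2% and 88.8% in knockdown, against 92.8% and 89.7% in NC (adjusted p = 0.069), and 97.6% of the NC level was left. Position 43 of the same RNA had 31.7% and 30.6% in knockdown, against 45.5% and 50.8% in NC, and fell by 16.9 points (adjusted p = 4.93e-22), and positions 46-48 had 5.21% and 5.76% in knockdown against 5.85% and 7.26% in NC (adjusted p = 0.242). All 3 sites were read at similar depth, 949 to 1129 reads per library. In SNORD45A, positions 24-25 had 10.4% and 11.8% in knockdown and 6.38% and 19.4% in NC (adjusted p = 0.626), while 57-59 fell as given above. The remaining C/D falls were in SNORD51, SNORD97 (2 sites) and SNORD134. SNORD134 positions 80-81 had 1 deletion in 47 reads and 0 in 77 in knockdown, and the count of 0 allows a level of up to 3.90% when 3 reads of the total are taken as the limit (4.68% by the exact 95% interval).

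**Figure D3:**
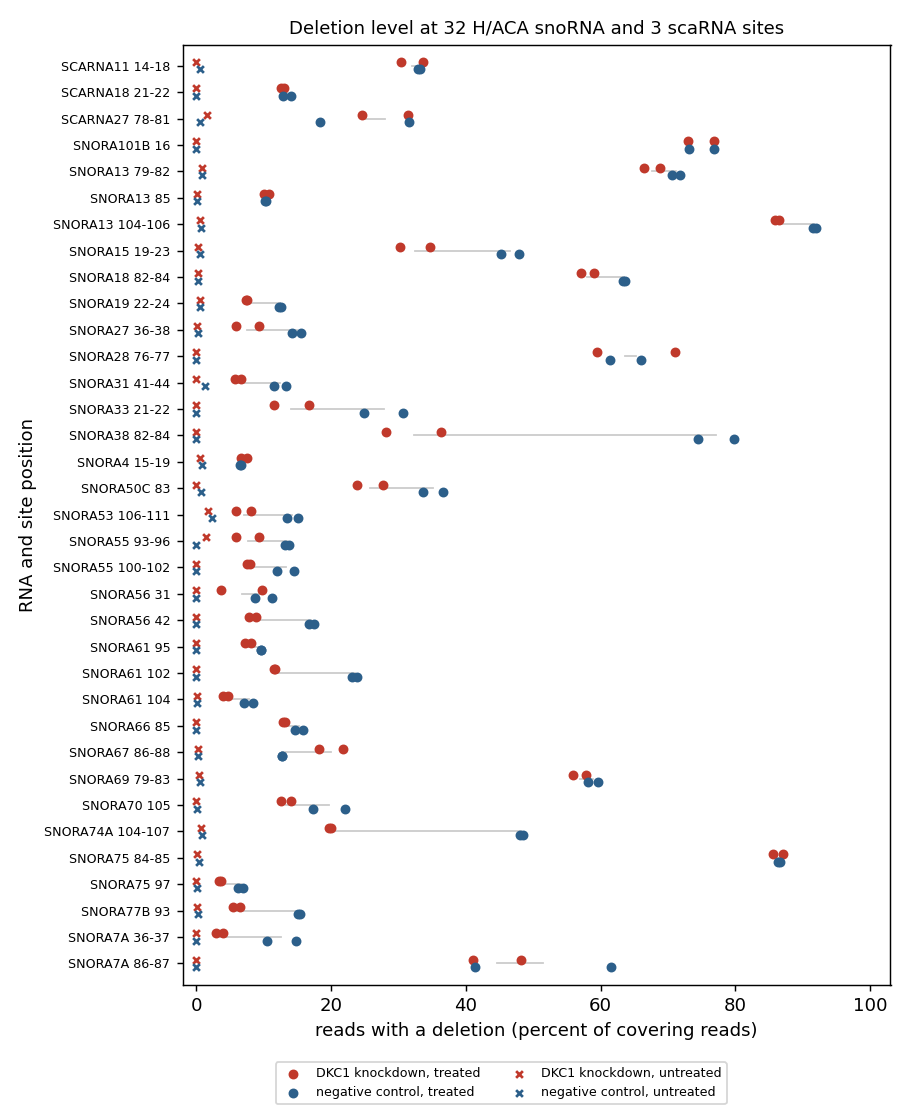
Deletion level (percent of covering reads) at the 32 tested H/ACA snoRNA sites and the 3 tested scaRNA sites, one row per site. Red dots are the 2 treated knockdown libraries, blue dots the 2 treated NC libraries, crosses the untreated libraries and grey lines join the means. SNORA38, SNORA74A and SNORA15 are shifted left in knockdown, and the dots of the 2 genotypes overlap at SNORA75 84-85 and SNORA101B 16.

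H/ACA snoRNAs are the RNAs dyskerin binds, and they can also carry Ψ themselves. Among them SNORA38 positions 82-84 fell most, with 28.1% and 36.4% in knockdown, against 79.8% and 74.5% in NC (adjusted p = 5.90e-09). Its knockdown levels rest on 32 and 44 covering reads. SNORA74A positions 104-107 had 20.02% and 19.8% in knockdown, against 48.5% and 48.02% in NC, at 8387 or more reads. SNORA15 positions 19-23, SNORA33 positions 21-22 and SNORA61 position 102 were the other falls, with differences of -14.2, -13.7 and -11.9 points. SNORA7A positions 36-37 had 3.92% and 2.99% in knockdown, against 14.7% and 10.5% in NC, which left 27.4%, the least of the H/ACA sites with an NC level of 10% or more. The knockdown levels of SNORA7A rest on 2 deletions in 51 reads and 2 in 67.

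Several highly modified H/ACA sites did not pass the test or changed by under 10 points. SNORA75 positions 84-85 had 87.001% and 85.6% in knockdown, against 86.3% and 86.6% in NC (adjusted p = 0.876). SNORA101B position 16 had 73.02% and 76.8% in knockdown, against 76.8% and 73.1% in NC, and SNORA28 positions 76-77 had 59.5% and 70.97% in knockdown, against 66% and 61.3% in NC. The libraries of the 2 genotypes overlapped at all 3 sites, although SNORA28 rests on 31 and 37 reads in knockdown. SNORA13 positions 104-106, SNORA13 79-82, SNORA69 79-83 and SNORA18 82-84, chosen after their values were seen, had 91.4% to 96.7% of the NC level left. SNORA13 104-106, SNORA13 79-82 and SNORA18 82-84 passed the p threshold (adjusted p = 7.30e-09, 0.0123 and 3.05e-08). Their differences were -5.50, -3.56 and -5.46 points. SNORA69 79-83 did not pass it (adjusted p = 0.282). SNORA75 position 97, in the same RNA as the retained site, had 3.34% and 3.68% in knockdown, against 6.93% and 6.24% in NC (adjusted p = 7.91e-06).

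The 3 scaRNA sites had too few reads for small changes. SCARNA11 positions 14-18 had 30.4% and 33.6% in knockdown, against 33.2% and 32.9% in NC. SCARNA18 positions 21-22 had 12.5% and 13.04% in knockdown, against 12.8% and 14.1% in NC, and SCARNA27 positions 78-81 had 31.3% and 24.5% in knockdown, against 18.4% and 31.5% in NC. None of the 3 passed the test, with adjusted p-values of 0.82 to 0.887 from 46 to 432 reads per library.

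The share of the NC level that was left was compared over classes for the 72 tested sites with a mean NC level of at least 10%, where the ratio has a usable denominator. The median was 81.0% at 20 snRNA sites, 43.8% at 22 C/D sites, 67.4% at 27 H/ACA sites and 96.8% at 3 scaRNA sites, beside 62.8% over all 72. Taking 1 knockdown and 1 NC library at a time gave medians of 78.9 to 83.0% for snRNA sites, 42.4 to 48.0% for C/D sites, 65.1 to 66.9% for H/ACA sites and 92.5 to 101.6% for scaRNA sites; the H/ACA value of 67.4% comes from averaging libraries before the median. These 4 ranges did not overlap. Sites are not replicates and 2 libraries against 2 cannot give a permutation p under 0.333, so the order of classes has no test. Within each class the sites spread widely, from 18.6 to 357% in snRNAs, 7.35 to 97.6% in C/D snoRNAs and 27.4 to 158% in H/ACA snoRNAs. The lowest H/ACA value, at SNORA7A 36-37, rests on 2 deleted reads in each knockdown library. Under 50% was left at 6 snRNA, 13 C/D, 7 H/ACA and 0 scaRNA sites. SNORA70 position 105, the H/ACA site at the class median, had 14.1% and 12.5% in knockdown, against 17.3% and 22.1% in NC (adjusted p = 0.1). Over sites with an NC level of at least 20% the snRNA median was 64.8% and the H/ACA median 89.01%, so the order of these 2 classes turned.

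**Figure D4:**
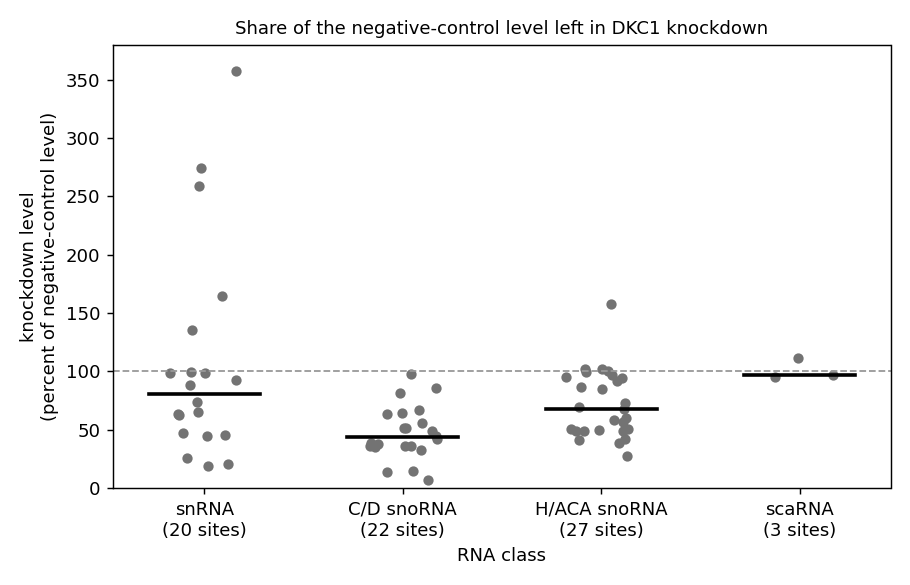
Knockdown level as a percent of the NC level for each tested site with an NC level of at least 10%, by RNA class. Grey points are sites, black bars class medians (81.0%, 43.8%, 67.4% and 96.8%), and the dashed line marks an unchanged level.

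The number of reads that cover each RNA was compared as a second readout. The site tests rest on the same reads, as the denominator of each level and in the minimum of 20 reads. All 27 H/ACA snoRNAs and all 5 scaRNAs had fewer covering reads in knockdown, with knockdown over NC ratios of 0.0749 to 0.688 for H/ACA snoRNAs (median 0.241) and 0.134 to 0.333 for scaRNAs (median 0.294). The 18 C/D snoRNAs had ratios of 0.799 to 2.27 (median 1.03). The untreated libraries gave medians of 0.231 for H/ACA snoRNAs, 0.344 for scaRNAs, 0.895 for C/D snoRNAs and 0.892 for snRNAs, and all 32 H/ACA and scaRNAs were again below 1. Summed over the listed RNAs, H/ACA reads per C/D read were 0.255 and 0.226 in treated knockdown libraries against 0.569 and 0.595 in treated NC libraries, and 0.355 in untreated knockdown against 0.9904 in untreated NC. Fewer cells with the RNA and less RNA per cell cannot be told apart in bulk samples.

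**Figure D5:**
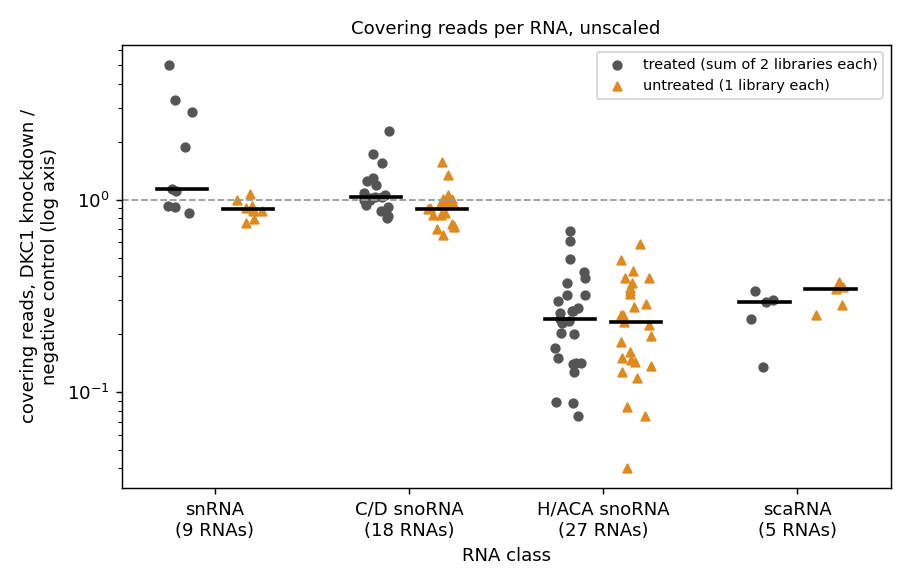
Covering reads per RNA in knockdown divided by NC, on a log axis without scaling, by RNA class. Grey circles are the summed treated libraries, orange triangles the single untreated libraries and black bars the class medians; all H/ACA snoRNAs and scaRNAs lie under 1.

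With edgeR's quasi-likelihood test and TMM scaling, 30 of 59 RNAs were lower (50.8%) and 27 higher (45.8%) at an adjusted p under 0.05. The 30 were 25 of 27 H/ACA snoRNAs and 5 of 5 scaRNAs, and the 27 were all 18 C/D snoRNAs and all 9 snRNAs. Scaling on the C/D snoRNAs alone gave a median log2 ratio of -1.06 over all RNAs, against -0.35 with TMM, and called 37 lower (62.7%) and 7 higher (11.9%). All 27 H/ACA snoRNAs and 5 scaRNAs were then lower, and of the C/D snoRNAs 4 were lower, 3 higher and 11 neither. Relative to C/D snoRNAs the H/ACA median was -2.09 and the scaRNA median -1.80 on the log2 scale. Of the 9 snRNAs, U1, U2, U4 and U5A were higher under both scalings, RNU5B-1 was lower on the C/D scale and the other 4 were not called on it.

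SNORA67 had the lowest treated ratio, with 22 and 23 covering reads in knockdown against 245 and 356 in NC, a log2 ratio of -3.05 with TMM (adjusted p = 3.09e-07) and -3.77 on the C/D scale. SNORA15 had 136 and 150 reads in knockdown against 1540 and 1740 in NC (log2 ratio -2.84), and SNORA80C had 16 and 11 in knockdown against 144 and 162 in NC (-2.82). SNORA56 had 136 and 165 in knockdown against 1142 and 1231 in NC (-2.30), SCARNA5 had 4 and 5 in knockdown against 31 and 36 in NC (-2.20), and SNORA33 had 30 and 52 in knockdown against 277 and 313 in NC (-2.17). The unscaled knockdown over NC ratios of these 6 RNAs were 0.0402 to 0.252 in the untreated libraries. In the other direction, U4 had a log2 ratio of 3.01 with TMM and 2.29 on the C/D scale. U1 had 56650 and 55807 reads in knockdown against 15560 and 18359 in NC (2.42 with TMM, 1.70 on the C/D scale), and U2 had 73357 and 92187 in knockdown against 27756 and 30205 in NC (2.18 and 1.46). SNORD32A had 52 and 48 in knockdown against 22 and 22 in NC (1.85 and 1.141), and U5A had 13968 and 16898 in knockdown against 7657 and 8700 in NC (1.59 and 0.87). Among H/ACA snoRNAs the highest ratios were those of SNORA74A and SNORA61. SNORA74A had 8387 and 8640 reads in knockdown against 11481 and 13252 in NC and SNORA61 had 2283 and 2557 in knockdown against 3549 and 4412 in NC. They were the 2 H/ACA snoRNAs not called with TMM (adjusted p = 0.059 and 0.508), were lower on the C/D scale, with log2 ratios of -0.57 and -0.75, and were called higher with DESeq2 and its size factors. SNORA74A was also called higher with TMM when either knockdown library was left out.

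Covering reads and Ψ level can be set side by side for the H/ACA RNAs named above. SNORA74A and SNORA61 had knockdown over NC read ratios of 0.688 and 0.608 and kept 41.2% and 49.4% of the Ψ level at positions 104-107 and 102. SNORA75 had a read ratio of 0.320 and 99.8% of the level at 84-85, and SNORA69 had a read ratio of 0.263 and 96.7% of the level at 79-83. SNORA15 had a read ratio of 0.0872 and 69.6% of the level at 19-23, SNORA33 a read ratio of 0.139 and 50.7% at 21-22, and SNORA38 a read ratio of 0.296 and 41.8% at 82-84. Sites of 1 RNA differed: 53.3% was left at SNORA75 97, and 79.8% and 56.1% at SNORA61 95 and 104. No common direction is read from these pairs. These ratios compare reads as deposited, without scaling, and the RNAs were set side by side after their values were seen.

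The authors' deposited label of DKC1 dependence was compared with the calls. Of the 10 tested snRNA sites with that label in the authors' deposited table, 9 fell and 1 was not called, and of the 16 without it, 1 fell and 3 rose. Of the 40 tested snoRNA sites with the label, 16 fell and 24 were not called, and of the 22 without it, 1 fell. The label does not follow the 10-point minimum used here. U8 position 10 and U3 positions 48-50 carried it and were lower with the p-value alone. SNORA70 position 105 carried it and did not pass the p threshold. A labelled site that was not called is therefore not read as disagreement. The 2 falls without the label were U6atac 82-83 and SNORA15 19-23. The label shares its libraries with the calls and is not independent of them.

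The 11 sites under 20 reads are SNORD2 21, SNORD11 39-42, SNORD47 57-58, SNORA67 101 and 104-105, SNORA79 97, SNORA80C 30-31, SNORA50A 39-40, SCARNA5 99-101, SCARNA16 106-108 and SCARNA21 79. The lowest library of each had 1 to 16 reads, and the sites nearest above the limit, in SNORD32A and SNORA67 86-88, had 22. Mean differences ran from -42.9 points (SNORD47) to 30.5 points (SCARNA5).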

How the data were processed

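PRAISE small-RNA libraries of DKC1 knockdown and negative-control HEK293T cells were used. Per the file headers, the authors' snRNA and snoRNA tables give counts of reads with a deletion and of covering reads, and the deletion rate as a fraction. One deposited column is of another kind (other), the authors' signed change in fraction when the writer is lost. Per the submitters' processing notes, cutadapt, UMI-tools 1.0.0, BWA, SAMtools 1.14 and GRCh38 were used; how deletions were counted and sites filtered is not given in the sources used here. In knockdown libraries the deposited deletion counts matched their rates (within 1e-06) at 0 of 28 snRNA sites and 2 of 73 snoRNA sites in each treated library, whereas rate times covering reads was whole (within 0.02 reads) at all of them, and this product was used. The untreated knockdown counts matched at 1 of 28 snRNA sites and 26 of 73 snoRNA sites, and the product was used there too. Negative-control counts matched at all sites.

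Sites with at least 20 reads in all 4 treated libraries were fitted with a quasi-binomial model on reads with and without a deletion, with dispersion moderated over the table (limma 3.58.1 squeezeVar, R 4.3.3) and kept at 1 or more, an F test (two-sided) and p-values adjusted per table by Benjamini-Hochberg. Over the snoRNA table the moderated dispersion was 1.34 at every site, so a site's own spread between libraries does not enter its p-value. Adjusted p-values of deep snoRNA sites are therefore very small. Some lie below what the program stores and are not printed. At some snRNA sites, U1 5-6 and U5A 40-43 among them, the dispersion was 1, which is counting error alone. Libraries of 1 genotype differed beyond counting error over the 88 sites. The chi-square over its degrees of freedom was 2.75 in knockdown and 1.83 in NC. A call needed an adjusted p under 0.05 and 10 points. Covering reads per RNA, the highest over its listed sites, were tested with edgeR 4.0.16 quasi-likelihood after TMM; as the table holds listed RNAs only, scaling rests on these. RNU6-1 and RNU4ATAC were left out of it. DESeq2 1.42.0 was an alternative. The tests were also run on simulated data built on the levels and depths seen here, and no result rests on that run. The percent of control level left is 100 times the mean knockdown over the mean control level. Depth sets the counting precision: the tested sites had 22 reads or more in every treated library.

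Named sites are, per table, the 8 largest falls, 5 largest rises and 5 highest retained levels at a control level of at least 20%, the site at each class median, the sites of U2 34 to 44, U1 5-6, U4, U5, U6, U12, U6atac, U3, U8 and U13, and the 5 RNAs with the largest coverage change each way; a few others are given for contrast. Members, lists and tests were chosen with earlier results of these data known. Sites in other genotypes' tables were not used here. The sequence of 1 snRNA stretch is not reported here.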

Additional observations from a re-analysis of the deposited data

How the results depend on the processing

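For snRNA sites, 10 falls and 3 rises were found again with Fisher's exact test, limma on percentage points and both tables fitted together. They also stood with untreated levels subtracted, where only the difference was shifted and the p-values were those of the main fit. Coverage minimums of 10, 50 and 100 reads could not change the snRNA counts. Every tested snRNA site had at least 250 reads in each treated library. A 20-point minimum left 5 snRNA falls and 9 snoRNA falls, no minimum gave 8 snRNA rises and 43 snoRNA falls, and a coverage minimum of 100 left 9 snoRNA falls. Leaving out 1 library gave 7 to 20 snoRNA falls, 10 snRNA falls throughout and 3 to 4 snRNA rises; the lower count came with either knockdown library left out, and the 7 sites were all among the 17. With the knockdown deletion counts as deposited, which contradict their rates, the counts were 20 snRNA falls, 0 snRNA rises and 52 snoRNA falls, and RNU2-1 43-44 (-12.2 points), RNU2-1 53-55 (-12.6), RNU2-1 58 (-10.1), RNU4-2 4-6 (-14.2), RNU5A-1 46 (-14.7), SCARNA27 78-81 (-25.0) and SNORA28 76-77 (-63.7) changed sign. The cause of that disagreement was not tested.

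The median percent left moved, for snRNA sites, to 90.6 with NC levels from 5%, 64.8 from 20%, 107 as a mean and 89.2 with 1 value per RNA. For C/D sites it moved to 50.3 with 100 reads, 38.3 from 20% and 47.5 as a mean. For H/ACA sites it moved to 59.1 with 100 reads, 89.01 from 20%, 72.0 as a mean and 60.0 with 1 value per RNA. For scaRNA sites it moved to 104.3 from 20%. Leaving out 1 library gave 79.8 to 82.1 for snRNA, 43.4 to 47.4 for C/D, 63.4 to 67.9 for H/ACA and 90.7 to 99.5 for scaRNA sites. The C/D median was below the H/ACA median in each of these settings. RNAs with higher coverage numbered 7 with scaling on C/D snoRNAs, against 27.

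Equal replicate numbers were not treated as pairs. Deviations of same-numbered libraries correlated at r = 0.06 over 88 sites. Sites are not replicates, so this value cannot show whether the libraries were paired. The replicate block gave 10 snRNA falls, 3 snRNA rises and 18 snoRNA falls. Weighted by counting error the correlation was -0.33, and the crossed block, added after seeing the data, gave 10, 3 and 17. Low coverage of H/ACA RNAs in knockdown limits the precision of their levels.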
